A study of Mus musculus with 3 samples.

Results

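The core of the Hippo pathway and its effectors YAP and TAZ were followed in NIH3T3 cells, an immortalized line of mouse embryonic fibroblasts of the NIH/Swiss strain, to see whether forced expression of YAP was accompanied by other mRNA levels of the genes that restrain it. The genes were Yap1, Wwtr1, Lats1, Lats2, Stk3, Stk4, Sav1, Nf2, Ajuba and Wwc1. They were represented by every probe set whose annotation names 1 of them alone, which gave 27 probe sets for 9 of the 10 genes, among 18193 genes on the array. Stk3, which encodes the kinase MST2, was not analysed here, and 1 probe set that names Lats2 together with a second gene was left out. The cells were grown with 10% calf serum and fell into 3 groups, each measured on 1 Affymetrix GeneChip mouse genome array: cells expressing mouse YAP with serine 112 replaced by alanine (mtYAP), cells expressing wild-type mouse YAP (YAP), and control cells that the labels call untransduced. Both YAP lines were made by infection with a retrovirus that carried a Flag-tagged coding sequence and a puromycin resistance gene, and were selected with puromycin, so they differ from the untransduced control in that treatment too. The methods say that the surviving cells were grown on as lines, and they also describe an empty virus, without saying which control cells were put on the array. Without replicates, values carry no replicate error and no test was run.

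In the Hippo pathway, the kinases MST1 and MST2, bound to the scaffold SAV1, activate the kinases LATS1 and LATS2, which phosphorylate YAP and its relative TAZ. Phosphorylated YAP is held in the cytosol by 14-3-3 proteins and can be degraded, whereas unphosphorylated YAP enters the nucleus and activates genes together with TEAD transcription factors. MERLIN, the product of Nf2, and KIBRA, the product of Wwc1, act upstream to switch the kinases on, and the LIM protein AJUBA holds LATS back. LATS2 and NF2 are known as YAP target genes in other cells, which makes a negative feedback possible, and the pathway is known in fibroblasts for arresting growth on contact between cells.

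A level is the log2 value of a probe set as deposited, and a difference is the level in one group minus that in another, so that a difference of 1 is 2-fold. A gene's level is the mean over its probe sets. A probe set that reached a level of 6 on at least 1 array is called clearly measured here, as were 18 of the 27 probe sets and at least 1 probe set of each of the 9 genes. The arrays had medians of 4.57 in mtYAP, 4.56 in YAP and 4.60 in control, and 33.0% to 34.0% of their probe sets stood at 6 or more. All 10 fibroblast marker genes, among them Col1a1, Col1a2 and Vim, had a probe set at or above 6 on every array, whereas the epithelial and endothelial markers had none. Of 5 macrophage and blood markers, Csf1r alone reached 6, at up to 6.54 in mtYAP, 6.29 in YAP and 6.09 in control. A free-text label of the control array mentions embryonic stem cells, but of 8 stem cell markers all except Utf1 lay below 6 on every array, with Pou5f1 at 3.33 in mtYAP, 3.50 in YAP and 2.96 in control and Nanog at 2.16, 1.96 and 2.25. The summed level of the fibroblast markers was 101.3 in mtYAP, 109.4 in YAP and 112.5 in control. In mtYAP their differences from control ran from −2.6 (Pdgfrb) to −0.16 (Vim). In YAP Col3a1 and Vim stood above control, at 0.72 and 0.17, and the others below. Their median difference from control was −0.74 in mtYAP and −0.36 in YAP. The part of this shift in the results below was not tested, and in a bulk RNA sample fewer cells of a type and less RNA per cell cannot be told apart.

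A pair of genes whose products act on LATS in opposite directions, Ajuba and Wwc1, stood above control by a difference of more than 1 in cells overexpressing mtYAP, and Yap1 was the member furthest below it. Of the 9 genes, 2 lay above 1 and none below −1 in mtYAP, where 3.77% of all genes lay above 1 and 4.06% below −1. In YAP none of the 9 passed either limit, where 1.36% of all genes lay above 1 and 1.26% below −1. The median difference of the 9 genes was 0.30 in mtYAP and 0.11 in YAP, beside 0.02 and −0.003 over all genes. The median of the 7 members whose mean level reached 6 on at least 1 array was smaller in mtYAP, at 0.11, and below 0 in YAP, at −0.06. Nf2 is among these 7 through mtYAP alone, with a mean level of 6.49 there and 5.79 in control. Since mtYAP and YAP were set against the same control array, the values of the members are given side by side and not as separate support.

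**Figure D1:**
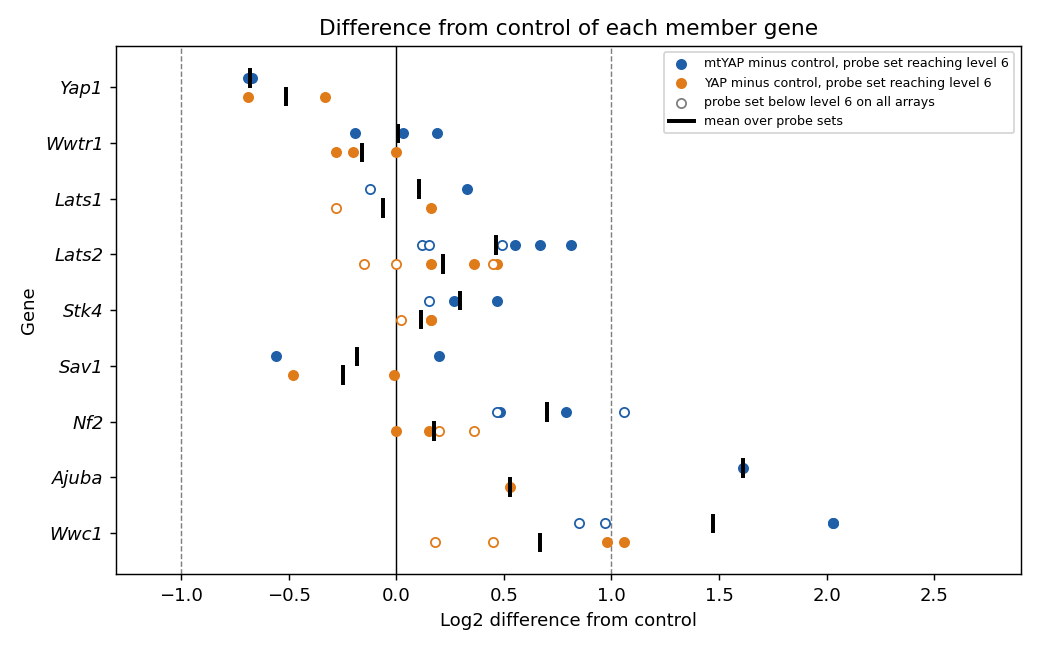
Log2 difference from control (horizontal axis) of the 9 genes (rows), for mtYAP in blue and YAP in orange, with 1 point per probe set, open where the probe set stayed below a level of 6 on all arrays, and a black bar at the mean over probe sets. Ajuba at 1.61 and Wwc1 at 1.47 are the genes past 1 in mtYAP, and both Yap1 probe sets lie left of 0 in both groups.

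Yap1 encodes YAP itself, and its probe sets read lower in both overexpressing lines. The probe set 1448363_at had a level of 9.15 in mtYAP, 9.51 in YAP and 9.84 in control. The probe set 1416487_a_at had a level of 6.63 in mtYAP, 6.61 in YAP and 7.30 in control. Control was thus the highest array for both, and they agreed closely in mtYAP, at −0.69 and −0.67, but less so in YAP, at −0.33 and −0.69. Their mean difference was −0.68 in mtYAP and −0.51 in YAP, or 1.60-fold and 1.42-fold lower than control, and Yap1 ranked 1434th and 943rd from the lowest of 18193 genes. The introduced mRNA consists of the coding sequence and vector sequence, and no source used here says which part of the Yap1 mRNA is covered by these probe sets, so neither label is checked by them. Whether they detect the introduced mRNA was not tested. At the protein level, the paper examined YAP in these lines by western blot and immunostaining. It describes marked nuclear mtYAP and mainly cytosolic wild-type YAP in confluent cells.

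Wwtr1, which encodes TAZ, the paralogue of YAP, differed little. Its 3 probe sets had levels of 9.71, 8.64 and 8.28 in mtYAP, 9.62, 8.45 and 8.05 in YAP and 9.90, 8.45 and 8.25 in control. The differences were −0.19, 0.19 and 0.03 in mtYAP and −0.28, 0.00 and −0.20 in YAP, so the probe sets did not share a direction in mtYAP. The mean difference of 0.01 in mtYAP became −0.02 once a smooth trend of the difference on the level (loess) was removed, and that in YAP was −0.16.

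Of the LATS kinases, Lats2 stood somewhat above control and Lats1 close to it. The clearly measured probe sets of Lats2 had levels of 7.90, 7.24 and 6.63 in mtYAP, 7.25, 6.93 and 6.55 in YAP and 7.09, 6.57 and 6.08 in control. Each of these was highest in mtYAP and lowest in control, with differences of 0.81, 0.67 and 0.55 in mtYAP and 0.16, 0.36 and 0.47 in YAP. The other 3 probe sets of Lats2 stayed at 4.79 or below on every array. They differed by 0.12 to 0.49 in mtYAP and −0.15 to 0.45 in YAP, where the lowest was opposite in direction. The mean over 6 probe sets of Lats2 put it 0.47 (1.38-fold) above control in mtYAP and 0.22 (1.16-fold) above it in YAP, and over the clearly measured ones by 0.68 and 0.33. The clearly measured probe set of Lats1 had a level of 9.59 in mtYAP, 9.42 in YAP and 9.26 in control. This is a difference of 0.33 and 0.16, while its other probe set, at 4.18, 4.02 and 4.30, ran the other way at −0.12 and −0.28.

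The upstream kinase MST1 and its scaffold showed small differences. Stk4, which encodes MST1, had levels of 9.04, 7.58 and 5.04 over its 3 probe sets in mtYAP, 8.73, 7.47 and 4.91 in YAP and 8.57, 7.31 and 4.89 in control. All 3 were ordered mtYAP, YAP, control from high to low, and in mtYAP the mean difference was 0.30 (1.23-fold), against 0.11 (1.08-fold) in YAP. Sav1, the scaffold that couples MST to LATS, had levels of 8.99 and 7.43 in mtYAP, 9.07 and 7.22 in YAP and 9.55 and 7.23 in control. Its probe sets disagreed in mtYAP, at −0.56 and 0.20, and in YAP they stood at −0.48 and −0.01, so the mean of −0.18 in mtYAP has no settled direction.

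**Figure D2:**
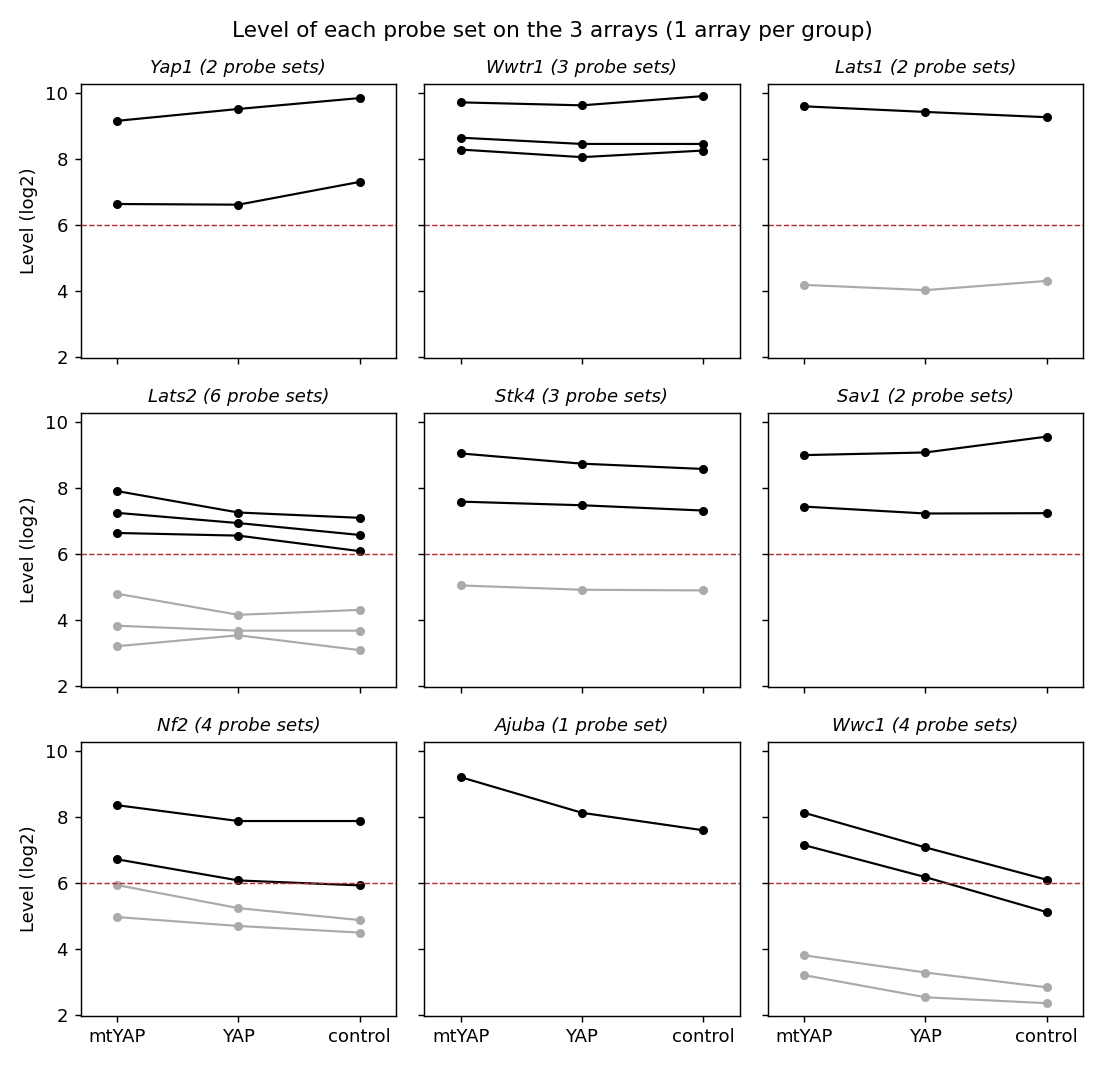
Level (log2, vertical axis) of each probe set of the 9 genes on the mtYAP, YAP and control arrays, with 1 line per probe set, black where it reached a level of 6 on at least 1 array (dashed line) and grey otherwise. The lines of Nf2, Ajuba and Wwc1 are highest in mtYAP, those of Yap1 are highest in control, and those of Wwtr1 are nearly flat. Lines join groups for reading only.

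Nf2, the tumour suppressor gene whose product MERLIN activates LATS, read higher in mtYAP in all 4 probe sets. Its clearly measured probe sets had levels of 8.35 and 6.71 in mtYAP, 7.87 and 6.07 in YAP and 7.87 and 5.92 in control. These differ from control by 0.48 and 0.79 in mtYAP and by 0.00 and 0.15 in YAP, so mtYAP stood apart while YAP lay at or near the control level. The dimmer ones had levels of 5.93 and 4.96 in mtYAP, 5.23 and 4.69 in YAP and 4.87 and 4.49 in control. The first of them, 1427708_a_at, passed the limit at 1.06 in mtYAP, and the other differed by 0.47. The mean over the 4 probe sets of Nf2 was 0.70 (1.62-fold) above control in mtYAP but 0.18 (1.13-fold) above it in YAP, and it ranked 1306th from the highest in mtYAP.

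Ajuba, whose LIM protein inhibits LATS, had the largest difference among the 9 members in mtYAP by the mean over all probe sets. By the brightest probe set of each gene, Wwc1 was larger, at 2.03. The single probe set of Ajuba, 1421344_a_at, had a level of 9.20 in mtYAP, 8.12 in YAP and 7.59 in control. It was clearly measured on all 3 arrays and lay 1.61 (3.05-fold) above control in mtYAP and 0.53 (1.44-fold) above it in YAP, ranking 224th and 1034th from the highest of 18193 genes. It was also 1.08 (2.11-fold) higher in mtYAP than in YAP, 105th from the highest. With 1 probe set there is no second reading of Ajuba on the array. Among the genes with a level of at least 6, those whose levels ran most like it over the 3 arrays, by Euclidean distance after each gene's mean was removed, were Cdk1 and Ung, at distances of 0.080 and 0.088. Cdk1, the kinase that drives mitosis, had a level of 9.00 in mtYAP, 7.95 in YAP and 7.50 in control, and Ung, a uracil DNA glycosylase, had 6.08, 4.91 and 4.35. Ung thus entered this search through mtYAP alone. Over 3 arrays and among 7128 candidate genes a near pattern is easily found, so nearness says nothing about shared regulation.

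Wwc1, which encodes the scaffold KIBRA, stood above control in all 4 probe sets and in both lines. Its brighter probe sets, 1420008_s_at and 1427261_at, had levels of 8.12 and 7.14 in mtYAP, 7.07 and 6.17 in YAP and 6.09 and 5.11 in control. Both were highest in mtYAP and lowest in control, and both lay 2.03 (4.08-fold) above control in mtYAP, and in YAP 0.98 (1.97-fold) and 1.06 (2.08-fold) above it. The other probe sets had levels of 3.80 and 3.20 in mtYAP, 3.28 and 2.53 in YAP and 2.83 and 2.35 in control. These low values, with differences of 0.97 and 0.85 in mtYAP and 0.45 and 0.18 in YAP, pull the mean over 4 probe sets to 1.47 (2.77-fold) in mtYAP and 0.67 (1.59-fold) in YAP. Averaged over the brighter probe sets alone, a choice made after the data were seen, Wwc1 lay 2.03 above control in mtYAP and 1.02 above it in YAP. Of these, 1427261_at was at 5.11 in control and met the cut-off of 6 only through mtYAP and YAP, where it was higher. The choice thus favours a rise, and passing the limit in YAP this way is no separate support for one. By the mean over 4 probe sets Wwc1 ranked 276th from the highest in mtYAP and 651st in YAP. The nearest patterns over the 3 arrays were those of Snhg17, a host gene of small nucleolar RNAs, at a distance of 0.015, and Mcm7, a subunit of the replicative helicase, at 0.018. Mcm7 had a level of 9.04 in mtYAP, 8.24 in YAP and 7.60 in control, and Snhg17 had 7.18, 6.36 and 5.69. Snhg17 reached 6 in mtYAP and YAP only, and the limit given for the patterns near Ajuba holds here too.

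**Figure D3:**
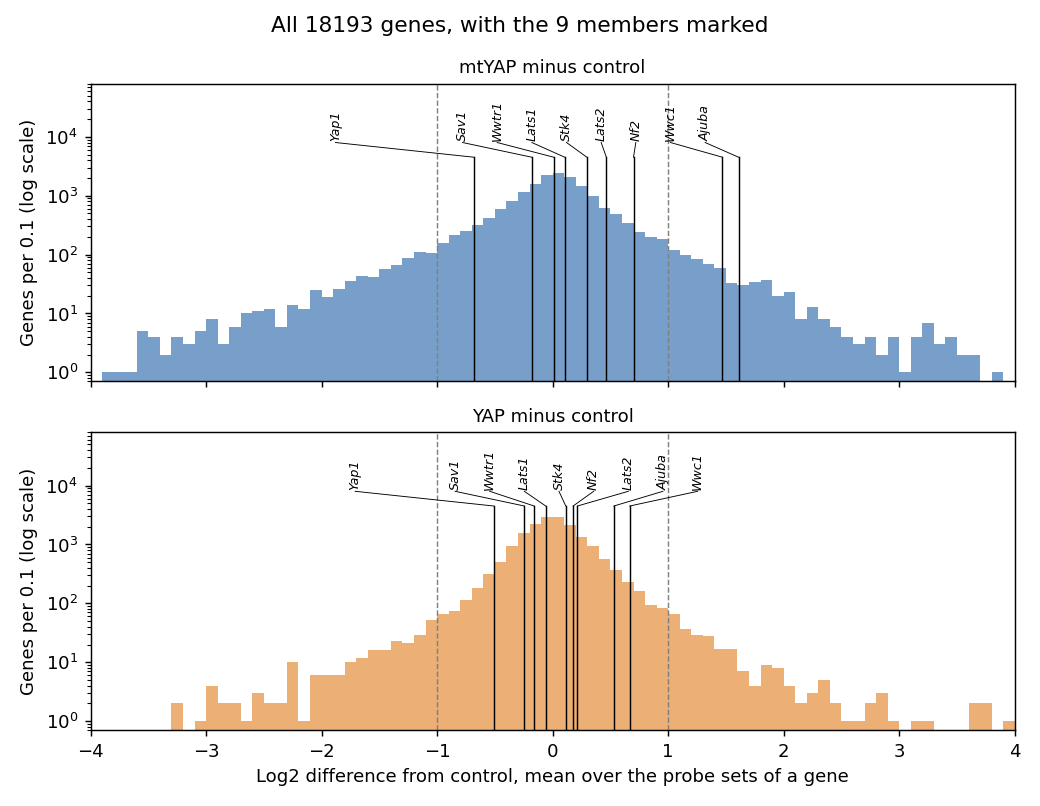
Number of genes (vertical axis, log scale) by log2 difference from control (horizontal axis, in steps of 0.1) in mtYAP (upper panel, blue) and YAP (lower panel, orange), with black lines at the 9 members and dashed lines at −1 and 1. Beyond the plotted range of −4 to 4 lie 24 genes in mtYAP and 3 in YAP. Ajuba and Wwc1 lie in the upper tail in mtYAP, and in YAP all 9 members lie between −0.51 and 0.67.

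Counted by probe sets, 4 of 27 lay above 1 in mtYAP, 1 of Ajuba, 1 of Nf2 and 2 of Wwc1, and none below −1, where 4.61% and 4.67% of all probe sets with 1 gene did. In YAP 1 of 27, of Wwc1, lay above 1, against 1.69% of all, and none below −1, against 1.5%. Between mtYAP and YAP 2 of 27, of Ajuba and Wwc1, lay above 1, against 0.993%, and none below −1, against 1.66%. In mtYAP 22 of the 27 probe sets stood above 0 and 5 below, where 51.0% of all probe sets with 1 gene stood above 0. In YAP 16 stood above 0, 8 below and 3 at 0, where 48.5% of all stood above 0. The direct comparison of mtYAP with YAP placed 8 of the 9 genes higher in mtYAP, and Yap1 lower at −0.17, where 53.3% of all genes were higher. The median of the 9 genes in it was 0.18, beside 0.03 over all genes. Ajuba was the member above 1 in it, where 0.748% of all genes were above 1 and 1.42% below −1, and Wwc1 followed at 0.80 (1.74-fold) and Nf2 at 0.52 (1.44-fold). All 4 probe sets of Nf2 and of Wwc1 read higher in mtYAP than in YAP, by 0.27 to 0.70 and by 0.52 to 1.05. These 3 comparisons share arrays and are not separate results. Probe sets of the same gene read the same RNA samples and are not independent units either.

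Counts over genes moved with the limit and with the level. At a limit of 1.5-fold, 3 members (Ajuba, Wwc1 and Nf2) lay above control in mtYAP and 1 (Yap1) below, where 9.46% of all genes lay above and 9.61% below. In YAP it was 1 member above, Wwc1, and none below, beside 4.71% and 3.88% of all genes. Ajuba and Wwc1 were higher in mtYAP than in YAP at this limit and no member was lower, beside 3.82% and 5.07% of all genes. The 7 members whose mean level reached 6 on at least 1 array leave out Lats2 and Wwc1 and take in Nf2 through mtYAP alone. Of them, Ajuba lay above 1 in mtYAP and none below −1, where 7.66% and 8.22% of such genes did. None of these 7 passed in YAP, beside 2.72% and 2.3%, and Ajuba was 1 of the 7 above 1 between mtYAP and YAP with none below −1, beside 1.33% and 3.06%.

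The promoters of Ajuba and Wwc1, the members furthest above control, of Yap1, the one furthest below, and of Lats2 are shown to set their letters beside these values. The windows run from 250 bases before to 50 bases after an annotated start, 5′ to 3′ on the gene's strand, with the motif GGAATG, the core that TEAD factors bind, in capitals on either strand (CATTCC when it lies on the other). Positions count from the start as 0 and give the first base of a match as printed. The sequences are those of RefSeq on GRCm38.p6.
Ajuba, chr14:54577612-54577911, minus strand: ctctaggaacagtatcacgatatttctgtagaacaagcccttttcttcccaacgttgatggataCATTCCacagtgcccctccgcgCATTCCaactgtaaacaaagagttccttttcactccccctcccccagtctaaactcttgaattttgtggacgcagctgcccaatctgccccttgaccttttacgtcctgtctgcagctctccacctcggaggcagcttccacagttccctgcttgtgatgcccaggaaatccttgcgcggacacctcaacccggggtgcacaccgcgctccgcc
Wwc1, chr11:35980478-35980777, minus strand: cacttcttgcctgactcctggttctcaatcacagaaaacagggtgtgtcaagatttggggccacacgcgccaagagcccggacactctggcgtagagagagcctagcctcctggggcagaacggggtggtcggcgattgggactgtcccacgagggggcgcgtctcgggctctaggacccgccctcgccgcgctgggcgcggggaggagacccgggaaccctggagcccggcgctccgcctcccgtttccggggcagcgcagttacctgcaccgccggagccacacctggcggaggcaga
Yap1, chr9:8004547-8004846, minus strand: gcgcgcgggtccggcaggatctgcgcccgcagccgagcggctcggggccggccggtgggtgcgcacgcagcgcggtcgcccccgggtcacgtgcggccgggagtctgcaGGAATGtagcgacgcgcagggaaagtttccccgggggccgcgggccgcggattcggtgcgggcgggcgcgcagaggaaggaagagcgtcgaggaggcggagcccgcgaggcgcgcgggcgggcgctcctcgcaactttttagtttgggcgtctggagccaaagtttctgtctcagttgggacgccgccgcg
Lats2, chr14:57746074-57746373, minus strand: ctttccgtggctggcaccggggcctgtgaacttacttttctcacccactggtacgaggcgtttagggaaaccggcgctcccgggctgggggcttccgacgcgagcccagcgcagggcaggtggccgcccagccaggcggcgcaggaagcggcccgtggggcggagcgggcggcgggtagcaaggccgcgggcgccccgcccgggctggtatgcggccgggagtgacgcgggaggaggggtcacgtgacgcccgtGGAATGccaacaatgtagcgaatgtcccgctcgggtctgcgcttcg

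The Ajuba window held the motif at −186 and −164, that of Yap1 held it at −141 and that of Lats2 at 4, and the Wwc1 window held none. A second window of Lats2 held none either. Of the 9 genes with a RefSeq window, 5 had a match, the other two being Wwtr1 and Sav1, and Lats1, Stk4, Nf2 and Wwc1 had none. Counted by windows, 6 of 12 held the motif, and the 2 windows of Wwtr1 overlap and share theirs. Of all 32851 windows 14.7% held it, and of all 27025 genes 16.6%. The AP-1 motif TGANTCA, searched on both strands, was in none of the 12 windows and in 7.81% of all windows. The genes with a match stood on both sides of control in mtYAP, with Ajuba at 1.61 and Yap1 at −0.68, and Wwc1 at 1.47 had none. A match describes the letters only, and a missing one says nothing about binding elsewhere.

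The other genes of the pathway were counted by the same limits. Of 50 other genes written as a list by role, 46 were measured, and 1 lay above 1 in mtYAP and 1 below −1 in YAP, against 3.77% and 1.26% of all genes. None lay below −1 in mtYAP or above 1 in YAP, with a median difference of −0.01 in mtYAP and of 0.002 in YAP, beside 0.02 and −0.003 over all genes. The gene above 1 was Amotl2, an angiomotin that binds YAP and activates LATS. It had a level of 11.22 in mtYAP, 10.43 in YAP and 9.86 in control in its single probe set, a difference of 1.36 (2.57-fold) and 0.57 (1.48-fold). The gene below −1 was Fat4, an atypical cadherin whose fly relative Fat acts upstream of the pathway. Its 2 probe sets had levels of 6.49 and 6.45 in mtYAP, 5.73 and 5.68 in YAP and 6.93 and 7.11 in control. Fat4 was thus lowest in YAP, at a mean difference of −1.32, and lay between YAP and control in mtYAP at −0.55.

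**Figure D4:**
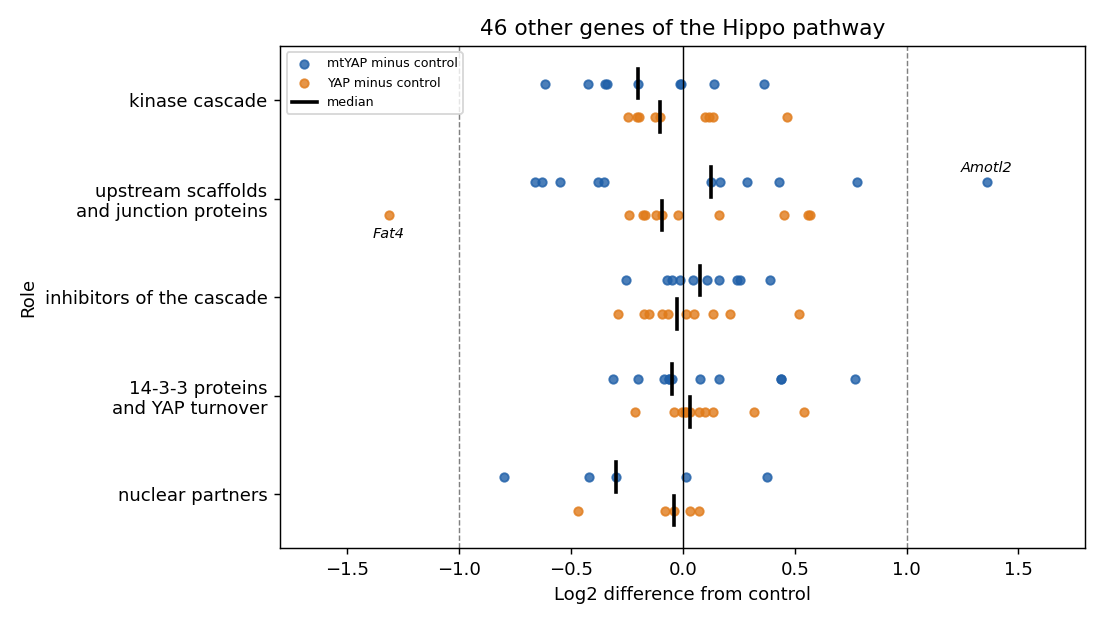
Log2 difference from control (horizontal axis) of 46 other Hippo pathway genes by role (rows), in mtYAP (blue) and YAP (orange), with 1 point per gene and a black bar at the median of each role. Amotl2 in mtYAP and Fat4 in YAP are the points past the dashed lines at −1 and 1.

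Scrib, a polarity protein of the same group of upstream scaffolds, had a level of 6.71 in mtYAP, 6.49 in YAP and 5.93 in control, a difference of 0.78 and 0.56. Among 9 measured kinases and adaptors of the cascade the range was −0.62 to 0.36 in mtYAP and −0.25 to 0.47 in YAP. The largest in mtYAP were those of Stk38, a kinase related to LATS, at −0.62 in mtYAP and −0.25 in YAP, and of Map4k4, a kinase that can phosphorylate LATS, at −0.43 and −0.20. All probe sets of both genes lay below 0 in mtYAP. In YAP they disagreed in direction, from −0.72 to 0.05 for Stk38 and from −0.79 to 0.18 for Map4k4. The brightest probe set of Stk38 stood at −0.61 in mtYAP and −0.07 in YAP. Among 10 inhibitors of the cascade the range was −0.26 to 0.39 in mtYAP and −0.29 to 0.52 in YAP. Wtip, a LIM protein of the AJUBA family, stood at 0.39 and 0.52, which is smaller in mtYAP than the 1.61 of Ajuba, and Sike1, a protein of the STRIPAK phosphatase complex, at −0.26 and −0.17 over probe sets that disagreed in direction.

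Of 11 genes of 14-3-3 proteins and of YAP turnover, none passed either limit. Among all genes 3.77% lay above 1 and 4.06% below −1 in mtYAP, and 1.36% and 1.26% in YAP. Ywhae, a 14-3-3 protein, read higher in all 4 probe sets, with levels of 11.55, 11.49, 10.90 and 9.44 in mtYAP, 11.34, 11.31, 10.69 and 9.13 in YAP and 10.89, 10.82, 10.14 and 8.46 in control. Its mean difference was 0.77 (1.70-fold) in mtYAP and 0.54 (1.45-fold) in YAP. Ywhag, a second 14-3-3 protein, differed by 0.44 and 0.32. Among 5 nuclear partners, Tead2, a TEAD factor, had a level of 8.19 in mtYAP, 9.02 in YAP and 8.99 in control. It was thus lower in mtYAP alone, by a difference of −0.80 from control, while in YAP it stood at 0.03. Vgll4, a cofactor that competes with YAP for TEAD, differed by −0.42 in mtYAP and −0.47 in YAP.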

How the data were processed

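RNA from mtYAP, YAP and control cells was measured on Affymetrix GeneChip mouse genome arrays, 1 per group. The deposited log2 levels were made by the authors, who subtracted the background and normalized with robust multiarray analysis. RMA and affy are named in the submitters' processing notes without versions, and no source used here says whether further arrays went into the same normalization. This method pulls the distributions of the arrays together, so a shift of all genes cannot be seen.

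Of 45037 probe sets, the platform annotation gives 34945 1 gene, 932 several and 9160 none listed, and only the first were used. Entrez identifiers found 18032 of the genes in the RefSeq table of GRCm38.p6 and not 161. Levels were averaged per gene, differences taken between groups, and genes counted above 1 and below −1. No test was possible with 1 array per group, whose number limits the precision. The counting was run on simulated data with planted differences beyond the limit and little noise. This checks the arithmetic only, and says nothing about how reliable a count is in these arrays.

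The members and lists were chosen with earlier results of these data known. Named were all members, pathway genes past the limit or among the 2 largest differences of their role in mtYAP, and the 2 nearest patterns of each member past 1 in mtYAP. Alternatives were other ways to join probe sets, a minimum level of 6, differences freed of their median or of a loess trend (span 0.3), a 1.5-fold limit and, added after seeing the data, clearly measured probe sets alone. Python 3.11.15, numpy 2.4.6, pandas 2.3.3, statsmodels 0.14.6 and matplotlib 3.10.9 were used.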

Additional observations from a re-analysis of the deposited data

Results flagged for a closer look

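Members and named pathway genes whose difference from control had opposite signs in mtYAP and in YAP were picked out, with 1 array each, so none of these contrasts was tested. Wwtr1 stood at 0.01 in mtYAP and −0.16 in YAP, 0.17 apart. With a loess trend removed, Wwtr1 lay below 0 in both, at −0.02 and −0.20. Lats1 stood at 0.11 in mtYAP and −0.06 in YAP, 0.17 apart, and its probe sets disagreed in direction in both. The clearly measured probe set of Lats1 lay above 0 in both, at 0.33 and 0.16. Tead2 stood at −0.80 in mtYAP and 0.03 in YAP, a difference of −0.83 between mtYAP and YAP in its single probe set.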

How the results depend on the processing

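Removing the median difference, removing a loess trend, and taking the median over probe sets left every count of members and of other pathway genes past the limit as it was. Members above 1 in mtYAP numbered 1 in place of 2 without probe sets whose names end in _s_at, _x_at or _a_at, where Ajuba has none left, and 1 among genes whose mean level reached 6, where Wwc1 drops out. Of all genes, 598 of 16591 and 546 of 7129 lay above 1 under these settings. In YAP 1 member passed when any probe set could pass, when only probe sets with a level of at least 6 were averaged, and at a limit of 1.5-fold, in place of 0. This was Wwc1, whose probe set 1427261_at met the level of 6 only through mtYAP and YAP. Of all genes, 277 of 8926 lay above 1 in YAP with only probe sets at a level of 6, and 4.71% passed at 1.5-fold. For the setting where any probe set could pass, no share of all genes was counted. Between mtYAP and YAP 2 members passed, in place of 1, with the brightest probe set, with any probe set, with only probe sets at a level of 6 and at 1.5-fold, and 0 without such _s, _x and _a probe sets. Of all genes, 180 of 18193 lay above 1 with the brightest probe set and 147 of 8926 with probe sets at level 6. At 1.5-fold it was 3.82% of all genes, and without _s, _x and _a probe sets 116 of 16591. At 1.5-fold 1 member, Yap1, lay below control in mtYAP, beside 9.61% of all genes. Of the other pathway genes, 0 of 39 lay above 1 in mtYAP without such _s, _x and _a probe sets, in place of 1. At 1.5-fold it was 3 of 46. Of all genes, 598 of 16591 and 9.46% lay above in these settings. Below control in mtYAP lay 1 other pathway gene with the brightest probe set and 2 with any probe set, in place of 0. With only probe sets at a level of 6 it was 1 of 40, and at 1.5-fold 4 of 46. Of all genes, 938 of 18193 lay below with the brightest probe set, 789 of 8926 at level 6 and 9.61% at 1.5-fold. Between mtYAP and YAP 2 other pathway genes lay above and 1 below at 1.5-fold, in place of 0 each. The shares of all genes were 3.82% and 5.07%. The median difference of the members ranged over these alternatives from 0.11 (a level of at least 6) to 0.47 (the brightest probe set) in mtYAP, where it was 0.30, and from −0.06 to 0.16 in YAP, where it was 0.11. It turned below 0 in YAP with a level of at least 6, and stood at 0.16 in mtYAP and 0.02 in YAP without such _s, _x and _a probe sets. The median of the other pathway genes ranged from −0.05 to −0.01 in mtYAP and from −0.07 to 0.01 in YAP, where it changed sign. No paired analysis was possible because each group holds 1 array, and leaving out an array removes its group. Whether differences of probe sets below a level of 6 are measured as well as those above it was not tested.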
